A study of Mus musculus with 14 samples.

Results

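A set of 6 brakes of T cell receptor signalling were followed through transferred ovalbumin-specific mouse CD8+ T cells: the ubiquitin ligases Cblb and Itch, the diacylglycerol kinases Dgka and Dgkz, and the growth-restraining genes Ndrg1 and Tob1. The 6 genes were chosen by name, for their known role. No measured value entered the rule, but earlier results of these data were known when the genes were chosen. All 6 stood in the deposited table of 10106 genes, and all 6 were among the 9793 genes tested.

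When the T cell receptor binds antigen, phospholipase C gamma splits a membrane lipid and releases diacylglycerol, which draws RasGRP1 and protein kinase C theta to the membrane and so starts Ras, ERK and NF-kappaB signalling. Diacylglycerol kinases end that signal by turning diacylglycerol into phosphatidic acid. Cbl-b and Itch attach ubiquitin to signalling proteins, and mice that lack either of them develop autoimmunity. NDRG1 and TOB1 are less well understood: in mouse T cells Ndrg1 has been described as an anergy factor, and in human T cells TOB1 has been described as a keeper of quiescence that acts through the CCR4-NOT deadenylase. Anergy, exhaustion and quiescence are the T cell states with which these 6 genes are usually discussed.

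The cells were OT-I CD8+ T cells, which carry a transgenic receptor for the ovalbumin peptide SIINFEKL. They came from CD45.1+ donors, were labelled with the dye CFSE, and were given by vein on day 0 to CD45.2+ C57BL/6 recipients, which keep all their own lymphocytes. The labels give an age of 8 to 12 weeks without saying whether donors or recipients are meant. The antigen followed on day 1, as 223 pmol injected by vein, an amount equal to 10 µg of ovalbumin. ERY1-OVA is ovalbumin directed to erythrocytes by the peptide ERY1 (3 libraries). TER119-SIINFEKL is the peptide directed to erythrocytes through the TER119 antibody specificity (3 libraries). OVA is soluble ovalbumin (3 libraries), SIINFEKL is soluble peptide (2 libraries), and Naive mice received saline (3 libraries). Spleens were taken on day 4, and viable CD3e+ CD8+ CD45.1+ cells were sorted. The erythrocyte carrier differed between the protein and the peptide (ERY1 against TER119), so carrier and antigen form cannot be told apart where the targeted groups are compared. The Naive cells were transferred and recovered like the others, so they are resting cells without antigen and not cells taken straight from a donor.

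Values are log2 RPKM, the logarithm to base 2 of a read number divided by the length of the gene and by the size of the library. Levels are given below as RPKM (2 to the power of the deposited value), and differences as log2 fold changes, where 1 is a doubling. A gene is said to have risen or fallen only where limma's moderated test gave a Benjamini-Hochberg adjusted p under 0.05 over all 9793 genes of the comparison. The labels do not say whether each library came from its own mouse, so these p-values measure the spread between libraries. In bulk RNA, fewer cells that express a gene and less RNA per cell cannot be told apart. No read counts entered the fits, and the sequencing depth of the libraries is unknown.

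The libraries carried the labelled identity: over the 14 libraries the level of Cd8a was 247 to 399 RPKM and that of Cd3e 301 to 431 RPKM, while Cd4 was at 0.182 to 1.31 RPKM. The summed level of 7 CD8 T cell genes (of 8 listed, Trac not being in the table) was 2760 to 2950 RPKM in ERY1-OVA, 2340 to 3040 in TER119-SIINFEKL, 2510 to 2780 in OVA, 3200 to 3410 in SIINFEKL and 3270 to 3780 in Naive libraries. Of 6 B cell markers, Cd79b and Cd22 were in the table, with sums of 12.8 to 27.5 RPKM over the antigen libraries against 8.49 to 10.3 RPKM in Naive libraries. Cd22 ran from 0.317 RPKM in Naive replicate 1 to 12.4 in TER119-SIINFEKL replicate 3. Cd79b ran from 8.09 RPKM in OVA replicate 3 to 17.6 in SIINFEKL replicate 1. Summed myeloid markers (8 of 10) were 28.9 to 108 RPKM over the antigen libraries against 28.7 to 52.0 RPKM in Naive libraries, with the highest sum in OVA replicate 1. Summed NK markers (3 of 4) were 5.42 to 22.1 RPKM over the antigen libraries against 13.4 to 17.1 RPKM in Naive libraries. CD4 and regulatory T cell markers (2 of 3) were 2.61 to 4.84 RPKM against 7.73 to 10.1 RPKM. That sum was mostly Cd40lg, at 2.03 to 9.76 RPKM with the highest level in Naive replicate 1, beside the low Cd4 given above. Erythroid markers (2 of 9) were 1.53 to 20.3 RPKM against 7.54 to 10.9 RPKM. No marker in the table was below 1 RPKM in every library. The part of these other cells in the results was not tested. The SIINFEKL libraries differed from each other more than libraries of any other group (r of 0.9626 over all genes, against 0.9806 to 0.9952 within the other groups). The proliferation gene Mki67, for instance, was at 21.2 and 2.89 RPKM in SIINFEKL replicates 1 and 2. SIINFEKL replicate 2 stood nearer to the Naive libraries (r of 0.9721 to 0.9748) than to SIINFEKL replicate 1, which had an r of 0.9237 to 0.9343 with them, so results of this group join unlike libraries. Over all tested genes the within-group SD was 0.416 log2 units in SIINFEKL and 0.226 to 0.255 in the other groups. The test used 1 estimate of the spread per gene for all groups. SEs and p-values of comparisons with SIINFEKL may therefore be too small. OVA replicate 1 and TER119-SIINFEKL replicate 1 read long genes low relative to their groups (Spearman correlation of a gene's deviation from its group mean with its transcript length of -0.51 and -0.49, against -0.32 to 0.54 in the other libraries). A low library makes others of its group appear high. The highest values were in TER119-SIINFEKL replicate 2 (0.54), OVA replicate 3 (0.47) and ERY1-OVA replicate 1 (0.44).

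The 6 genes spanned a wide range of abundance per length. Dgka and Dgkz were among the most abundant transcripts of these cells, with mean levels above those of 96.6% and 95.4% of tested genes. Cblb, Ndrg1, Itch and Tob1 stood above 68.2%, 66.6%, 57.6% and 53.8%. Ndrg1 varied most between groups, by 3.41-fold between its highest and its lowest group mean, and Tob1 by 2.34-fold. The corresponding range was 1.71-fold for Dgka, 1.61-fold for Cblb, 1.49-fold for Dgkz and 1.33-fold for Itch.

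**Figure D1:**
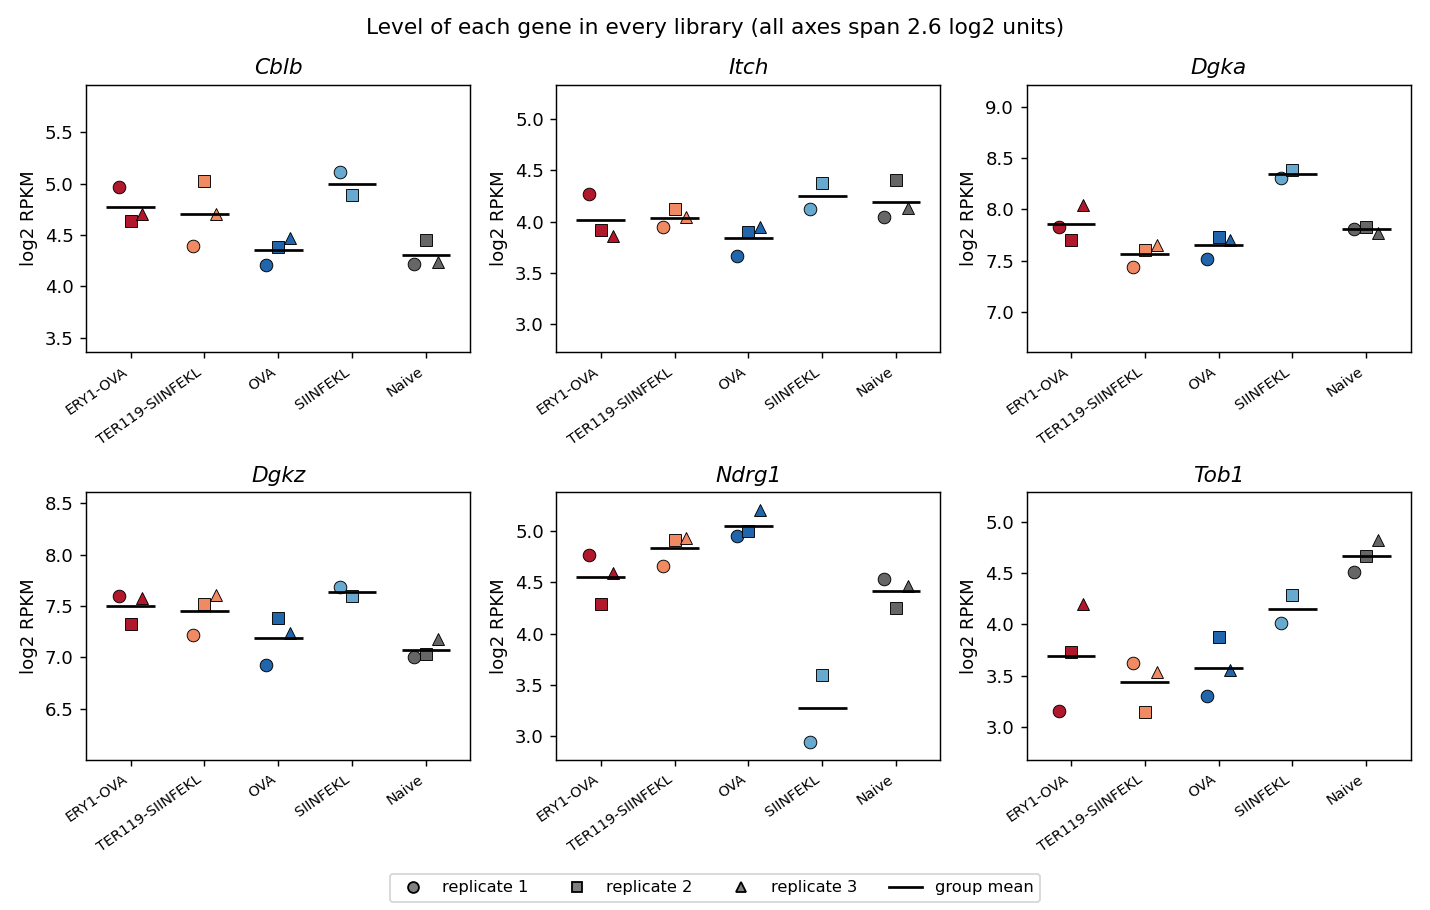
Level of each gene in log2 RPKM (vertical axis, of the same length in every panel) in each of the 14 libraries by group. Points are libraries, with the replicate number as symbol, and lines are group means. Ndrg1 is lowest in the SIINFEKL libraries, Tob1 is highest in the Naive libraries, and Dgka is highest in the SIINFEKL libraries.

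Against the Naive libraries, the 6 genes did not move as a block. In ERY1-OVA cells 2 of the 6 rose and 1 fell, where 39.9% of all tested genes were called (20.9% higher, 19.0% lower). In TER119-SIINFEKL cells also 2 rose and 1 fell, against 47.6% of all genes (24.6% higher, 23.0% lower). In OVA cells 1 rose and 1 fell, again against 47.6% (24.4% higher, 23.1% lower). These shares lie near the background. In SIINFEKL cells 3 rose and 1 fell, where 15.9% of all genes were called (7.58% higher, 8.34% lower). That group is 2 unlike libraries, and its p-values may be too small, as said above. The libraries did not overlap with the Naive libraries for 3, 4, 4 and 5 of the 6 genes in the ERY1-OVA, TER119-SIINFEKL, OVA and SIINFEKL comparisons, and for 52.5%, 58%, 59.8% and 46.2% of all tested genes. The median log2 fold change of the 6 genes was 0.09, 0.11, -0.05 and 0.30 in that order of groups, beside -0.01, -0.00, -0.04 and -0.01 over all genes. The 4 comparisons share the Naive libraries and are therefore not independent of each other.

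**Figure D2:**
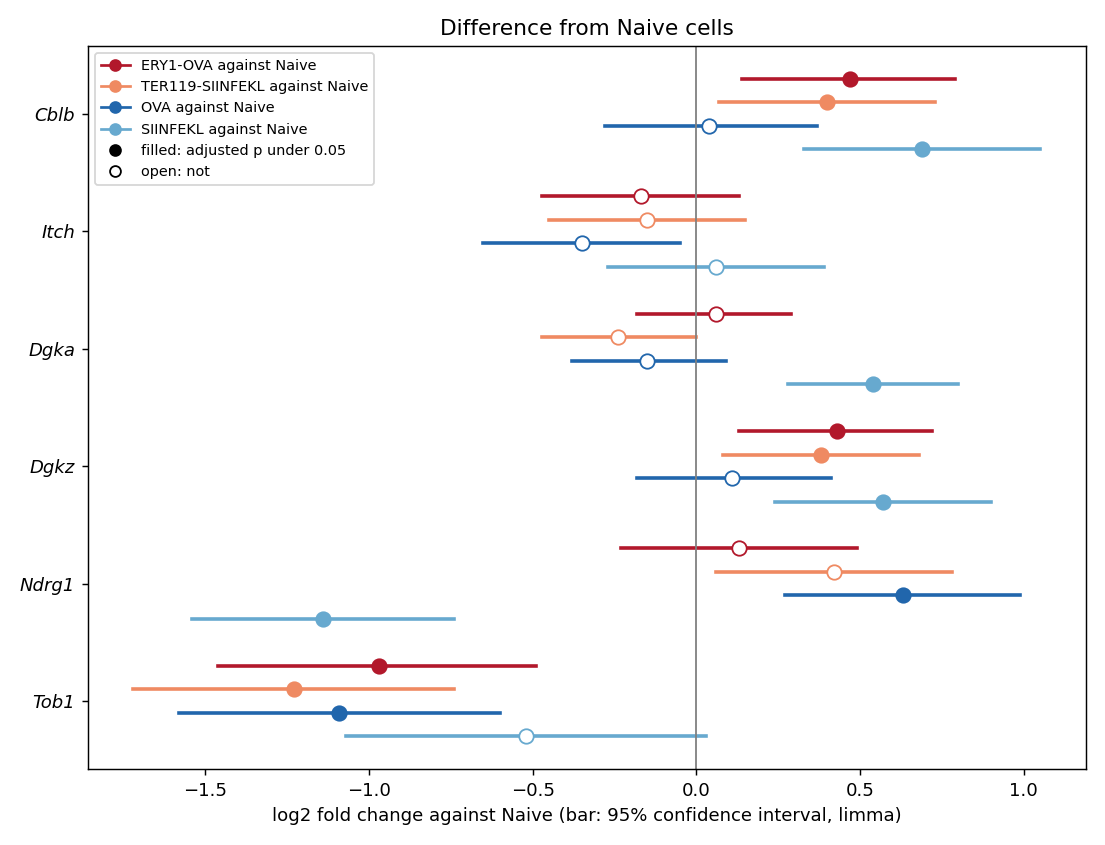
Log2 fold change against Naive (horizontal axis) of each gene in ERY1-OVA, TER119-SIINFEKL, OVA and SIINFEKL cells, with the 95% confidence interval of the limma fit, which is not adjusted for the number of genes. Filled points have an adjusted p under 0.05. Tob1 lies left of 0 in all 4 groups, and Ndrg1 lies right of 0 in OVA cells and left of 0 in SIINFEKL cells.

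Cblb encodes Cbl-b, a RING-type ubiquitin ligase that acts on proteins of the receptor-proximal signal and makes T cell activation depend on CD28 costimulation. It lies at chr16:52031225-52208048 on the plus strand of GRCm38 (ENSMUSG00000022637). Cblb stood at 31.3, 25.0 and 26.1 RPKM in ERY1-OVA libraries, 21.0, 32.6 and 26.0 in TER119-SIINFEKL, 18.5, 20.8 and 22.1 in OVA, 34.5 and 29.6 in SIINFEKL, and 18.7, 21.9 and 18.9 in Naive libraries. All ERY1-OVA and SIINFEKL libraries were above all Naive libraries, 1 TER119-SIINFEKL library lay within the Naive range, and the OVA libraries overlapped with it. Cblb rose in ERY1-OVA cells by a log2 fold change of 0.47 ± 0.15 (SE, n = 3 and 3, adjusted p = 0.026, limma), in TER119-SIINFEKL cells by 0.40 ± 0.15 (n = 3 and 3, adjusted p = 0.043) and in SIINFEKL cells by 0.69 ± 0.17 (n = 2 and 3, adjusted p = 0.016). In OVA cells the log2 fold change was 0.04 (95% confidence interval -0.28 to 0.37, adjusted p = 0.83). These rises were close to the threshold. The ERY1-OVA call was lost when ERY1-OVA replicate 1 was left out (0.37, adjusted p = 0.094), and likewise for Naive replicate 1 (0.42, adjusted p = 0.079) or Naive replicate 3 (0.43, adjusted p = 0.078). The SIINFEKL call was lost without SIINFEKL replicate 1 (0.58, adjusted p = 0.18) or Naive replicate 3 (0.66, adjusted p = 0.051). The TER119-SIINFEKL call was lost without TER119-SIINFEKL replicate 2 (0.24, adjusted p = 0.20), replicate 3 (0.40, adjusted p = 0.087), Naive replicate 1 (0.36, adjusted p = 0.12) or Naive replicate 3 (0.37, adjusted p = 0.11). It was also lost, at an unchanged fold, without ERY1-OVA replicate 3 or OVA replicates 2 or 3 (adjusted p = 0.051 to 0.053), without the variance trend (0.053) and with only these groups in the fit (0.059), with the replicate number as a block (0.056), and after quantile normalization (0.33, adjusted p = 0.075).

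Dgkz encodes diacylglycerol kinase zeta and is described here because its levels followed those of Cblb. It lies at chr2:91932824-91975864 on the minus strand (ENSMUSG00000040479). Its level was 193, 159 and 191 RPKM in ERY1-OVA libraries, 149, 183 and 196 in TER119-SIINFEKL, 122, 167 and 151 in OVA, 205 and 194 in SIINFEKL, and 128, 130 and 145 in Naive libraries. Every ERY1-OVA, TER119-SIINFEKL and SIINFEKL library exceeded every Naive library, though TER119-SIINFEKL replicate 1 did so narrowly, and the OVA libraries lay on both sides of the Naive range. Dgkz rose in ERY1-OVA cells by 0.43 ± 0.14 (SE, n = 3 and 3, adjusted p = 0.025, limma), in TER119-SIINFEKL cells by 0.38 ± 0.14 (n = 3 and 3, adjusted p = 0.035) and in SIINFEKL cells by 0.57 ± 0.15 (n = 2 and 3, adjusted p = 0.024). The OVA value was 0.11 (95% confidence interval -0.18 to 0.41, adjusted p = 0.52). After quantile normalization the ERY1-OVA and TER119-SIINFEKL values were 0.25 (adjusted p = 0.23) and 0.20 (adjusted p = 0.33), and after a correction for gene length and GC content they were 0.65 and 0.64, both called, with the OVA value also called at 0.28 (adjusted p = 0.0072). The ERY1-OVA call was lost without ERY1-OVA replicate 1 (0.38) or 3 (0.39), or Naive replicate 1 (0.39) or 2 (0.41), with adjusted p of 0.073 to 0.080. The TER119-SIINFEKL call was lost without TER119-SIINFEKL replicate 2 (0.35) or 3 (0.30), or Naive replicate 1 (0.35) or 2 (0.36), with adjusted p of 0.094 to 0.14. The SIINFEKL call was lost without SIINFEKL replicate 1 (0.53, adjusted p = 0.19) or Naive replicate 1 (0.54) or 2 (0.55, adjusted p = 0.067 each).

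Cblb and Dgkz moved together, in values not corrected for gene length, and their promoter windows are therefore shown. The windows run from 250 bases before to 50 after each RefSeq start site (GRCm38.p6), 5′ to 3′ on the gene's strand. RefSeq gives 1 window for Cblb, at chr16:52031299-52031598 on the plus strand, and 2 for Dgkz, at chr2:91963514-91963813 and chr2:91950299-91950598 on the minus strand. All 3 windows lie inside the genes as placed above, whose 5′ ends are at 52031225 for Cblb and 91975864 for Dgkz. Which start site these cells use is not known. Capitals mark the letters ACGTG, the core that hypoxia-inducible factors bind, and GGAAA or its reverse complement TTTCC, the core that NFAT binds.
Cblb window: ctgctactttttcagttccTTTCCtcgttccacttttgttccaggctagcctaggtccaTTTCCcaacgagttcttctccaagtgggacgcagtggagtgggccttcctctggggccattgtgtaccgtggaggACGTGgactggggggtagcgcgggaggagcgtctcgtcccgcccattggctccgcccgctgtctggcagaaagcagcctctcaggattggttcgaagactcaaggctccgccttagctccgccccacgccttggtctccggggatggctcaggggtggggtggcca
Dgkz window 1: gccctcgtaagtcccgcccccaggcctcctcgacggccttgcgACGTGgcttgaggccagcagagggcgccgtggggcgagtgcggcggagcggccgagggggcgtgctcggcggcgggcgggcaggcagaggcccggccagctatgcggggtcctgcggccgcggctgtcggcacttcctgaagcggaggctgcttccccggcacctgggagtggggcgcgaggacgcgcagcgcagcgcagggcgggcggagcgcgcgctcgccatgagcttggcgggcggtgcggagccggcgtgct
Dgkz window 2: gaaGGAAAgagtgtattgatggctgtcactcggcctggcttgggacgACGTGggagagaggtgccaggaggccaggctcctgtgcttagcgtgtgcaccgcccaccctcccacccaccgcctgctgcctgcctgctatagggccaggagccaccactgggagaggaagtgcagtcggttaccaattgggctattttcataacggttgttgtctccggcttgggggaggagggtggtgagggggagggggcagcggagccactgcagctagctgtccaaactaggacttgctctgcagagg
All 3 windows held ACGTG once, at -116 in Cblb and at -207 and -203 in Dgkz, counted from the start site. The NFAT core stood at -231 and -191 in Cblb and at -247 in the second Dgkz window, and it was not found in the first. The EGR motifs GCGTGGGCG and GCGGGGGCG and the FoxO motif GTAAACA were in none of the 8 windows of Cblb, Dgkz, Dgka and Tob1, on either strand. ACGTG was in 5 of these 8 windows, against 19.6% of 32851 RefSeq promoter windows and 26.6% of the 9305 windows of tested genes, and GGAAA also in 5, against 61.3% and 59.6%. Besides Cblb and Dgkz, ACGTG was in the Tob1 window and 1 Dgka window, and Tob1 levels did not follow those of Cblb (Pearson r of -0.35). Windows of the same gene are not independent, and the Dgka windows that start at 128743829 and 128744027 overlap. Of all windows 0.612% and 2.91% held the EGR motifs and 3.65% the FoxO motif, and of those of tested genes 1.25%, 5.29% and 2.58%. No other motif overlapped with these matches, apart from an ACGTG on each strand of 1 Dgka window that share 4 letters. GC content was 61.3% in the Cblb window and 77.7% and 61.7% in the Dgkz windows. These are matches of letters only, and binding was not measured.

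Itch, a HECT-type ligase whose substrates include JunB and phospholipase C gamma 1, is at chr2:155133509-155226855 on the plus strand (ENSMUSG00000027598). It varied least of the 6. Levels were 19.2, 15.2 and 14.5 RPKM in ERY1-OVA libraries, 15.5, 17.4 and 16.4 in TER119-SIINFEKL, 12.7, 14.9 and 15.5 in OVA, 17.4 and 20.8 in SIINFEKL, and 16.4, 21.1 and 17.5 in Naive libraries. The OVA libraries were all below the Naive libraries, and the other groups overlapped with Naive. No comparison of Itch with Naive passed the test: the log2 fold changes were -0.17 in ERY1-OVA cells (95% confidence interval -0.47 to 0.13), -0.15 in TER119-SIINFEKL cells (-0.45 to 0.15), -0.35 in OVA cells (-0.65 to -0.05) and 0.06 in SIINFEKL cells (-0.27 to 0.39). The OVA value missed the threshold narrowly (adjusted p = 0.052, limma) and was called under 7 of 24 alternatives. These were quantile normalization (-0.39, adjusted p = 0.030), the length and GC correction (-0.37, adjusted p = 0.023), a fit of only these groups (adjusted p = 0.048) and the fits without ERY1-OVA replicate 1 (0.035), either SIINFEKL library (0.047 each) or Naive replicate 1 (-0.42, adjusted p = 0.043).

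Dgka encodes diacylglycerol kinase alpha, the other main isoform of T cells, which is abundant in resting cells and held in check when a T cell is activated. It lies at chr10:128720134-128744855 on the minus strand (ENSMUSG00000025357). Dgka was at 228, 208 and 264 RPKM in ERY1-OVA libraries, 173, 194 and 201 in TER119-SIINFEKL, 184, 213 and 208 in OVA, 315 and 333 in SIINFEKL, and 224, 227 and 218 in Naive libraries. The SIINFEKL libraries were the highest of all 14, the TER119-SIINFEKL and OVA libraries lay below the Naive libraries, and the ERY1-OVA libraries lay on both sides of them. Dgka rose in SIINFEKL cells by 0.54 ± 0.12 (SE, n = 2 and 3, adjusted p = 0.011, limma), a call that was lost only without SIINFEKL replicate 1 (0.58, adjusted p = 0.066). The log2 fold change was 0.06 in ERY1-OVA cells (95% confidence interval -0.18 to 0.29), -0.24 in TER119-SIINFEKL cells (-0.47 to -0.00, adjusted p = 0.090) and -0.15 in OVA cells (-0.38 to 0.09). Quantile normalization and the length and GC correction called the last 2 as lower, at -0.38 and -0.35 in TER119-SIINFEKL cells (adjusted p = 0.030 and 0.0066) and -0.37 and -0.29 in OVA cells (adjusted p = 0.034 and 0.019). Both kinases were highest in SIINFEKL cells, and Dgkz but not Dgka passed the test in the targeted groups.

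Ndrg1, a gene induced by hypoxia and cell stress, lies at chr15:66929318-66969640 on the minus strand (ENSMUSG00000005125). It was at 27.2, 19.6 and 24.0 RPKM in ERY1-OVA libraries, 25.3, 30.2 and 30.4 in TER119-SIINFEKL, 30.8, 31.9 and 36.8 in OVA, 7.73 and 12.2 in SIINFEKL, and 23.2, 19.1 and 22.1 in Naive libraries. The SIINFEKL libraries were the lowest of all 14, the OVA and TER119-SIINFEKL libraries lay above all Naive libraries, and ERY1-OVA libraries overlapped with Naive. Ndrg1 moved in opposite directions with soluble protein and soluble peptide. The log2 SD of Ndrg1 was 0.46 over the SIINFEKL libraries and 0.13 to 0.24 within the other groups, and the SEs share 1 spread over all groups. Ndrg1 rose in OVA cells by 0.63 ± 0.17 (SE, n = 3 and 3, adjusted p = 0.0076, limma) and fell by 1.14 ± 0.19 on the log2 scale in SIINFEKL cells (n = 2 and 3, adjusted p = 0.0017). Both calls held under all 24 alternatives. The values were 0.13 in ERY1-OVA cells (95% confidence interval -0.23 to 0.49) and 0.42 in TER119-SIINFEKL cells (0.06 to 0.78, adjusted p = 0.055). The TER119-SIINFEKL value was called under 9 of the 24 alternatives. Among them were the fits without ERY1-OVA replicate 1 (adjusted p = 0.049) or 2 (0.047), TER119-SIINFEKL replicate 1 (0.50, adjusted p = 0.042) or either SIINFEKL library (adjusted p = 0.021 each). The others were a pseudocount of 1 (0.40, adjusted p = 0.049), only these groups in the fit (0.018), no OVA and TER119-SIINFEKL replicates 1 (0.50, adjusted p = 0.046) and the length and GC correction (0.40, adjusted p = 0.040).

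Tob1 encodes an antiproliferative protein of the TOB and BTG family. It lies at chr11:94211454-94215495 on the plus strand (ENSMUSG00000037573). Its levels were 8.91, 13.3 and 18.4 RPKM in ERY1-OVA libraries, 12.3, 8.90 and 11.6 in TER119-SIINFEKL, 9.88, 14.7 and 11.8 in OVA, 16.1 and 19.5 in SIINFEKL, and 22.8, 25.5 and 28.3 in Naive libraries. Every antigen library was below every Naive library. Tob1 was the only one of the 6 genes to fall in 3 of the 4 antigen groups. It fell by 0.97 ± 0.23 on the log2 scale in ERY1-OVA cells (SE, n = 3 and 3, adjusted p = 0.0043, limma), fell by 1.23 ± 0.23 in TER119-SIINFEKL cells (n = 3 and 3, adjusted p = 0.00067) and fell by 1.09 ± 0.23 in OVA cells (n = 3 and 3, adjusted p = 0.0017). All 3 calls held under the 24 alternatives. The SIINFEKL value was -0.52 (95% confidence interval -1.07 to 0.03, adjusted p = 0.18). Tob1 also had the widest spread within a group on the log2 scale, an SD of 0.52 over the ERY1-OVA libraries.

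Erythrocyte targeting was compared with the soluble form of the same antigen next. For the protein, ERY1-OVA against OVA, none of the 6 genes passed the test, where limma called 1.06% of all genes (0.408% higher, 0.654% lower). At an unadjusted p under 0.05 there were 3 of the 6 (Cblb, Dgkz and Ndrg1) and 1683 of all genes (17.2%). The ERY1-OVA and OVA libraries did not overlap for 2 of the 6 genes and for 24.4% of all tested genes. The log2 fold changes were 0.42 for Cblb (95% confidence interval 0.10 to 0.75, adjusted p = 0.17), 0.31 for Dgkz (0.02 to 0.61, adjusted p = 0.26), 0.21 for Dgka (-0.03 to 0.44) and 0.18 for Itch (-0.12 to 0.47). They were -0.50 for Ndrg1 (-0.86 to -0.14, adjusted p = 0.15) and 0.11 for Tob1 (-0.38 to 0.60). After the length and GC correction Dgkz was called (0.37, adjusted p = 0.026).

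For the peptide, TER119-SIINFEKL against SIINFEKL, 1 of the 6 genes rose and 2 fell, where 37.4% of all genes were called (20.4% higher, 17.0% lower). Ndrg1 was higher with the targeted than with the soluble peptide: it averaged 28.6 ± 2.89 RPKM in TER119-SIINFEKL cells and 9.94 ± 3.13 RPKM in SIINFEKL cells (SD, n = 3 and 2), a log2 fold change of 1.56 ± 0.19 (SE, adjusted p = 5.6e-05, limma). Dgka was lower, at 189 ± 14.3 RPKM in TER119-SIINFEKL cells, against 324 ± 12.5 RPKM in SIINFEKL cells, a log2 fold change of -0.78 ± 0.12 (adjusted p = 0.00036, limma). Neither call was lost under any of the 24 alternatives. Against Naive, SIINFEKL cells were called for Ndrg1 (-1.14) and Dgka (0.54), and TER119-SIINFEKL cells for neither gene (0.42 and -0.24). Tob1 fell to 10.9 ± 1.81 RPKM in TER119-SIINFEKL cells, against 17.8 ± 2.39 RPKM in SIINFEKL cells (-0.71 ± 0.25, adjusted p = 0.041). That call was lost without TER119-SIINFEKL replicate 2 (-0.57, adjusted p = 0.12) or 3 (-0.76, adjusted p = 0.063), or SIINFEKL replicate 1 (-0.85, adjusted p = 0.063) or 2 (-0.57, adjusted p = 0.20). It was lost too, at an unchanged fold, without ERY1-OVA replicate 2, OVA replicate 3 or any of the Naive replicates (adjusted p = 0.050 to 0.054). The libraries of the pair of groups did not overlap for 4 of the 6 genes and for 56.4% of all tested genes. The values of Cblb (-0.29, 95% confidence interval -0.65 to 0.07), Dgkz (-0.19, -0.52 to 0.14) and Itch (-0.21, -0.55 to 0.12) did not pass, although Cblb was called without TER119-SIINFEKL replicate 2 (-0.45, adjusted p = 0.045).

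The difference between these effects was tested directly, as the targeting effect on the protein minus that on the peptide. For 2 of the 6 genes it was above 0 and for 1 below, where 37.7% of all genes were called (17.1% above 0, 20.6% below). The difference was 0.98 ± 0.16 for Dgka (SE, adjusted p = 0.00059, limma), with a targeting effect of 0.21 on the protein and -0.78 on the peptide. For Ndrg1 it was -2.06 ± 0.25 (adjusted p = 7.2e-05), with effects of -0.50 and 1.56. Both held under the 24 alternatives. For Cblb it was 0.71 ± 0.23 (adjusted p = 0.025), with effects of 0.42 and -0.29, neither of them called. The Cblb call was lost without ERY1-OVA replicate 1 (0.61, adjusted p = 0.056), OVA replicate 1 (0.64, adjusted p = 0.054) or SIINFEKL replicate 1 (0.60, adjusted p = 0.092), and without OVA and TER119-SIINFEKL replicates 1 together (0.49, adjusted p = 0.088). The difference did not pass for Tob1 (0.82, 95% confidence interval 0.09 to 1.56, adjusted p = 0.073), Dgkz (0.51, 0.06 to 0.95, adjusted p = 0.069) or Itch (0.39, -0.06 to 0.84, adjusted p = 0.16). Tob1 was called without ERY1-OVA replicate 1 (1.09, adjusted p = 0.011) or OVA replicate 2 (0.97, adjusted p = 0.046) and after the length and GC correction (1.15, adjusted p = 0.016). Dgkz was called without ERY1-OVA replicate 2 (0.60, adjusted p = 0.048) or OVA replicate 2 (0.61, adjusted p = 0.038), after quantile normalization (0.85, adjusted p = 0.015) and after the length and GC correction (0.36, adjusted p = 0.022).

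**Figure D3:**
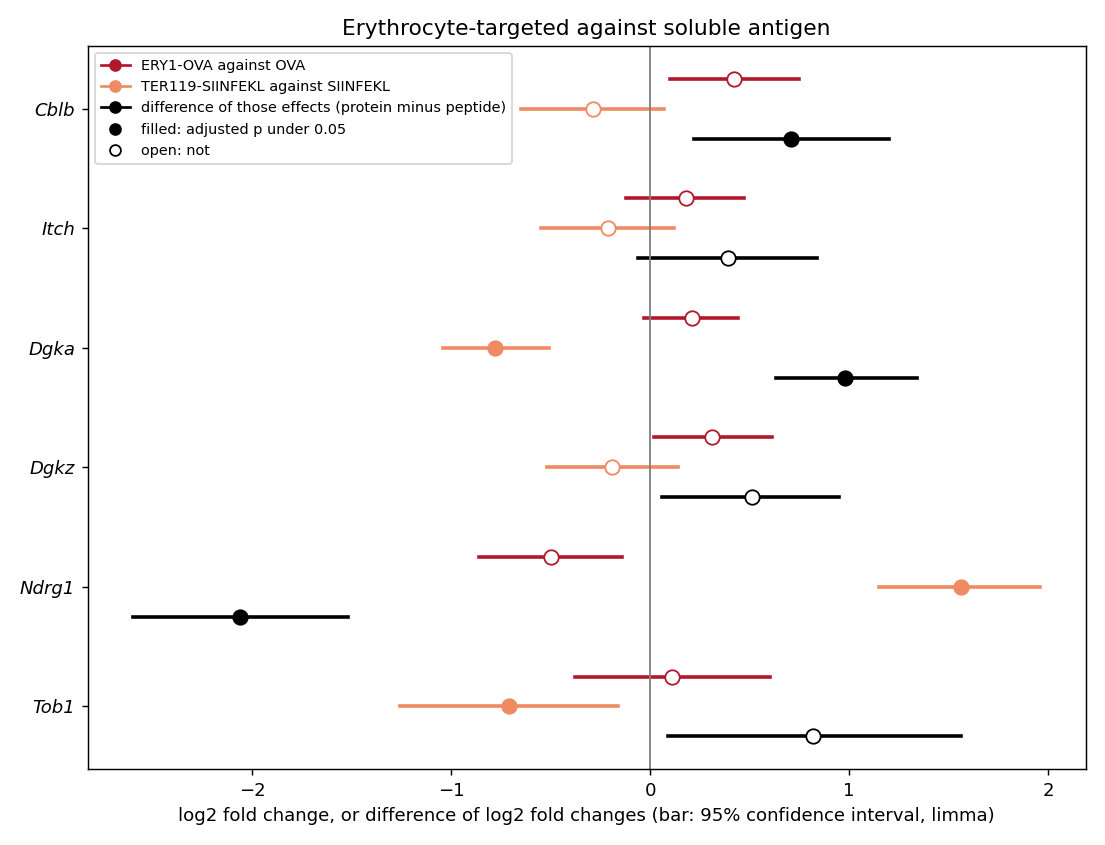
Log2 difference (horizontal axis) made by erythrocyte targeting of the protein (ERY1-OVA against OVA), by targeting of the peptide (TER119-SIINFEKL against SIINFEKL), and the difference between them, with 95% confidence intervals of the limma fit. Filled points have an adjusted p under 0.05. For Ndrg1 the peptide effect is 1.56 and the protein effect is -0.50.

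The targeted groups were close to each other. In ERY1-OVA against TER119-SIINFEKL none of the 6 genes passed, where limma called 0.562% of all genes (0.0715% higher, 0.490% lower), and at an unadjusted p under 0.05 there was 1 of the 6 (Dgka) and 1065 of all genes (10.9%). Dgka had the largest value, 0.29 (95% confidence interval 0.06 to 0.53, adjusted p = 0.31), apart from Ndrg1 at -0.29 (-0.65 to 0.07). Cblb was at 0.07 (-0.26 to 0.39), Dgkz at 0.05 (-0.25 to 0.34), Itch at -0.02 (-0.32 to 0.28) and Tob1 at 0.26 (-0.23 to 0.74). In TER119-SIINFEKL against OVA none of the 6 passed either, where 1.51% of all genes were called (0.909% higher, 0.602% lower), and 1 of the 6 (Cblb, 0.36, 95% confidence interval 0.03 to 0.68) and 1167 of all genes (11.9%) had an unadjusted p under 0.05. Itch was at 0.20 (-0.10 to 0.49), Dgka at -0.09 (-0.32 to 0.15), Ndrg1 at -0.21 (-0.57 to 0.15) and Tob1 at -0.14 (-0.63 to 0.35). Dgkz was at 0.27 (-0.03 to 0.56) and was called after the length and GC correction (0.36, adjusted p = 0.024).

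Among the comparisons between antigen groups, that of the soluble forms had the most calls for the 6 genes. In OVA against SIINFEKL 1 of the 6 genes was higher and 4 were lower, where 42.2% of all genes were called (22.4% higher, 19.9% lower), and the groups overlapped for none of the 6, with 61.4% of all tested genes not overlapping. Ndrg1 averaged 33.2 ± 3.17 RPKM in OVA cells and 9.94 ± 3.13 RPKM in SIINFEKL cells (SD, n = 3 and 2), a log2 fold change of 1.77 ± 0.19 (SE, adjusted p = 1.3e-05, limma). Dgka averaged 201 ± 15.6 RPKM in OVA cells and 324 ± 12.5 RPKM in SIINFEKL cells (-0.69 ± 0.12, adjusted p = 0.00066). These calls held under every alternative. Cblb averaged 20.5 ± 1.81 RPKM in OVA cells and 32.0 ± 3.47 RPKM in SIINFEKL cells (-0.65 ± 0.17, adjusted p = 0.0080), and the call was lost without SIINFEKL replicate 1 (-0.54, adjusted p = 0.069). Dgkz was lower by -0.46 ± 0.15 (adjusted p = 0.028) and Itch by -0.41 ± 0.15 (adjusted p = 0.046). The Dgkz call was lost without OVA replicate 1 (-0.33, adjusted p = 0.10), SIINFEKL replicate 1 (-0.42, adjusted p = 0.12) or SIINFEKL replicate 2 (-0.50, adjusted p = 0.066) and with only these groups in the fit (adjusted p = 0.083), and the value was -0.80 after quantile normalization. The Itch call was lost under 13 of the 24 alternatives. Of these, the fit without SIINFEKL replicate 2 gave -0.28 (adjusted p = 0.27), that without OVA replicate 1 gave -0.32 (adjusted p = 0.14), those without OVA replicate 2 or 3 gave -0.44 and -0.47 (adjusted p = 0.063 and 0.052), and those without ERY1-OVA replicate 2, TER119-SIINFEKL replicates 2 or 3 or Naive replicate 3 gave adjusted p of 0.054 to 0.060. Tob1 did not pass (-0.57, 95% confidence interval -1.11 to -0.02, adjusted p = 0.088), but was called without ERY1-OVA replicate 1 (adjusted p = 0.038) or 3 (0.047) and after the length and GC correction (-0.86, adjusted p = 0.013).

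In ERY1-OVA against SIINFEKL 1 of the 6 genes was higher and 1 lower, where 20.2% of all genes were called (13.3% higher, 6.88% lower). Ndrg1 averaged 23.6 ± 3.84 RPKM in ERY1-OVA cells and 9.94 ± 3.13 RPKM in SIINFEKL cells (SD, n = 3 and 2), a log2 fold change of 1.27 ± 0.19 (SE, adjusted p = 0.00040, limma), held under all 24 alternatives. Dgka was lower, at 233 ± 28.6 RPKM in ERY1-OVA cells and 324 ± 12.5 RPKM in SIINFEKL cells (-0.48 ± 0.12, adjusted p = 0.014). The Dgka call was lost without ERY1-OVA replicate 2 (-0.40, adjusted p = 0.061) or SIINFEKL replicate 2 (-0.44, adjusted p = 0.078) and with only these groups in the fit (adjusted p = 0.096). The values of the remaining genes did not pass: -0.22 for Cblb (95% confidence interval -0.59 to 0.14), -0.15 for Dgkz (-0.48 to 0.19), -0.23 for Itch (-0.57 to 0.10) and -0.45 for Tob1 (adjusted p = 0.22).

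Ordered from the highest to the lowest group mean, Cblb and Dgkz had the same sequence of groups: SIINFEKL, ERY1-OVA, TER119-SIINFEKL, OVA and Naive. Dgka ran SIINFEKL, ERY1-OVA, Naive, OVA and TER119-SIINFEKL, and Itch ran SIINFEKL, Naive, TER119-SIINFEKL, ERY1-OVA and OVA. Ndrg1 ran OVA, TER119-SIINFEKL, ERY1-OVA, Naive and SIINFEKL, and Tob1 ran Naive, SIINFEKL, ERY1-OVA, OVA and TER119-SIINFEKL. Of the 24 steps between neighbours in these orders, 2 passed the test: that of Dgka between ERY1-OVA and SIINFEKL, and that of Ndrg1 between SIINFEKL and Naive. The other steps did not pass, which does not show that these neighbours are alike: the Cblb step between TER119-SIINFEKL and OVA, for instance, was 0.36 with an unadjusted p of 0.035.

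Across the 14 libraries, the levels of Cblb and Dgkz had the closest relation of the 15 pairs of genes (Pearson r of 0.87), followed by the opposite relation of Dgka and Ndrg1 (-0.80). Among the other pairs r ran between -0.46 and 0.53. These are descriptions over libraries that share their group, the table's scaling and, within a group, the treatment. The values were not corrected for gene length. OVA replicate 1 and TER119-SIINFEKL replicate 1, which read long genes low, were the lowest of their groups for Cblb and for Dgkz. The part of transcript length in the relation of Cblb and Dgkz was not tested. Without the SIINFEKL libraries the Cblb and Dgkz value was 0.83 and the Dgka and Ndrg1 value was -0.35 over 12 libraries, so the relation of Dgka and Ndrg1 rested on the SIINFEKL libraries. Ndrg1 and Tob1 had the most negative value over these 12 libraries (-0.65), beside -0.44 over all 14.

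**Figure D4:**
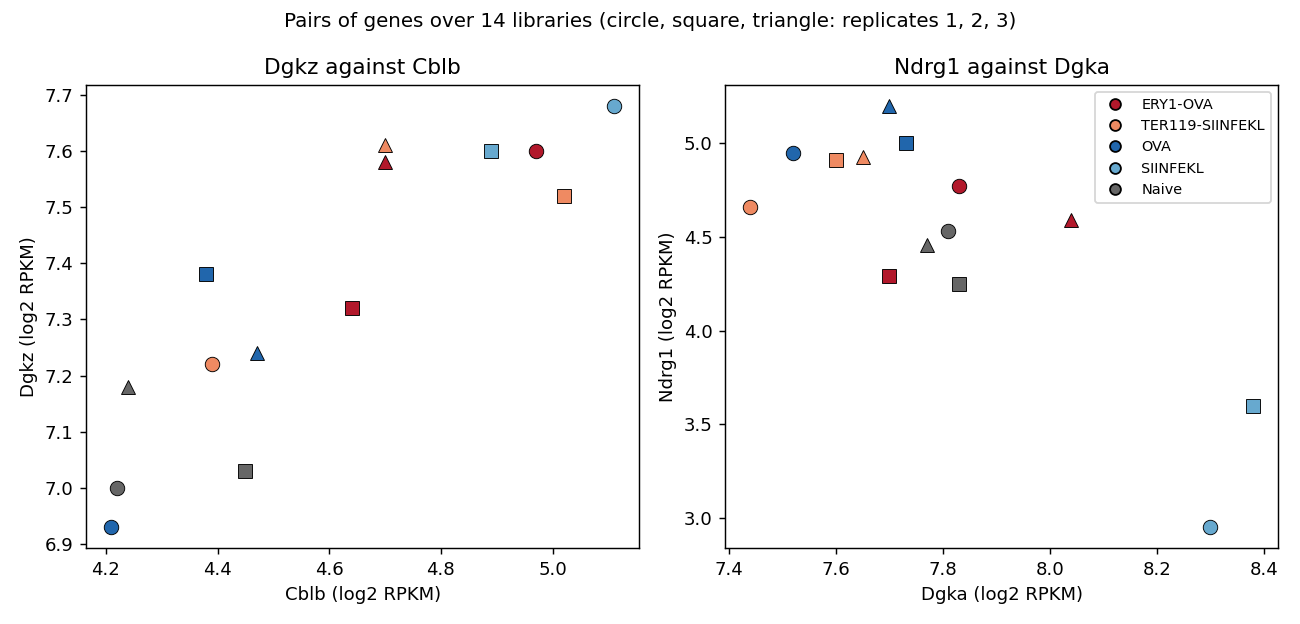
Level of Dgkz against Cblb (left) and of Ndrg1 against Dgka (right), both axes in log2 RPKM, in 14 libraries coloured by group, with the replicate number as symbol. Dgkz and Cblb lie along 1 band that holds all groups, whereas in the right panel the SIINFEKL libraries lie apart from the rest.

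Among 9768 tested gene symbols, those whose log2 levels followed each of the 6 most closely over the 14 libraries were listed by Pearson r. For Cblb these were the ubiquitin ligase Arel1 (0.968), Trpv2 (0.960), the MHC class II regulator Rfx5 (0.958) and Aff3 (0.944), and the most opposite were Emc6 (-0.936) and H2afj (-0.929). For Dgkz they were Athl1 (0.945), the Ras GTPase-activating gene Rasa1 (0.942), Adrbk1 (0.930) and Cdc14a (0.930), and Emc6 (-0.904) was again among the most opposite, after Arl2 (-0.926). Itch was followed most closely by Ankfy1 (0.958), Etnk1 (0.952), Stat3 (0.945) and Irf2 (0.944), with Rpp21 (-0.962) and Mrp63 (-0.958) opposite. For Dgka the list held the lipid-transfer gene Pitpnm1 (0.954), Hmha1 (0.948), the phospholipase gene Plcb2 (0.943) and Nlrc5 (0.942), and opposite it Sephs2 (-0.935) and Swap70 (-0.917). Ndrg1 had the mitochondrial carrier Slc25a10 (0.982), the chaperone Hsp90ab1 (0.965), the purine synthesis gene Impdh2 (0.965) and the chaperone Canx (0.962), with Gimap8 (-0.946) and Tlr1 (-0.942) opposite. For Tob1 the list was Pnrc1 (0.967), Shpk (0.942), Dnajb9 (0.937) and Ric8b (0.937), against Cul4b (-0.937) and Azin1 (-0.935). With 5 groups in 14 libraries, many genes share any such pattern, and these levels too were not corrected for gene length.

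The genes around these brakes were read from lists of the same pathways, each gene against Naive with limma's adjusted p. Genes are named for the comparison in which they had the largest change of their list, and a gene named in some groups may have passed in others too. Of 20 other ubiquitin ligases, deubiquitinases and their adaptors, 19 were tested. In ERY1-OVA cells 2 rose and 8 fell, in TER119-SIINFEKL cells 3 and 8, in OVA cells 2 and 7 and in SIINFEKL cells 1 and 4. The median log2 fold changes were -0.20, -0.44, -0.25 and 0.09 in that order. Ndfip1, the adaptor that switches Itch on, rose in ERY1-OVA (0.43 ± 0.14, adjusted p = 0.030) and TER119-SIINFEKL cells (0.69 ± 0.14, adjusted p = 0.0016). Peli1, a ligase that restrains T cell activation in mice, fell by 1.50 ± 0.11 on the log2 scale in TER119-SIINFEKL cells (adjusted p = 4.5e-07) and fell by 1.33 ± 0.11 in OVA cells (adjusted p = 7.2e-07). Dtx1, a ligase linked to anergy in mouse T cells, fell by 1.30 ± 0.17 in ERY1-OVA cells (adjusted p = 6.6e-05), fell by 1.49 ± 0.17 in TER119-SIINFEKL cells (adjusted p = 1.5e-05), fell by 0.95 ± 0.17 in OVA cells (adjusted p = 0.00064) and fell by 1.09 ± 0.19 in SIINFEKL cells (adjusted p = 0.0028). In SIINFEKL cells Nedd4, a HECT ligase of the same family as Itch, fell by 2.10 ± 0.24 (adjusted p = 0.00014), and Ubash3b, a phosphatase that dampens receptor signalling, rose by 0.98 ± 0.18 (adjusted p = 0.0040). The deubiquitinase gene Usp15 rose in OVA cells (0.39 ± 0.13, adjusted p = 0.026). The substrates of Cbl-b and Itch (13 of 13 tested) gave 1 higher and 3 lower in ERY1-OVA cells, 1 and 6 in TER119-SIINFEKL cells, 1 and 3 in OVA cells and 1 and 0 in SIINFEKL cells, with medians of -0.16, -0.20, -0.26 and 0.02. Pik3r2, a regulatory subunit of PI3-kinase, rose in ERY1-OVA (0.62 ± 0.18), OVA (0.56 ± 0.18) and SIINFEKL cells (0.81 ± 0.20), while Pik3r1 fell by 0.77 ± 0.15 in OVA cells. The AP-1 gene Jun fell by 1.74 ± 0.62 in ERY1-OVA cells and fell by 2.26 ± 0.62 in TER119-SIINFEKL cells, and the receptor-proximal kinase gene Zap70 rose in TER119-SIINFEKL cells (0.46 ± 0.11).

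Of the 8 other diacylglycerol kinase genes, 4 were in the table and 3 passed the filter on low values (Dgkd, Dgke and Dgkq). In ERY1-OVA cells 0 rose and 2 fell, in TER119-SIINFEKL cells 0 and 3, in OVA cells 0 and 2 and in SIINFEKL cells none was called (adjusted p of 0.12 for Dgkq at 0.60, 0.31 for Dgkd at -0.29 and 0.95 for Dgke at -0.02). Dgkd fell by 0.87 ± 0.17 in TER119-SIINFEKL cells (adjusted p = 0.00086), and Dgke fell by 0.68 ± 0.19 in ERY1-OVA cells (adjusted p = 0.012) and fell by 0.72 ± 0.19 in OVA cells (adjusted p = 0.0070). Group mean levels of these kinases were 4.83 to 5.69 log2 RPKM for Dgkd, 1.33 to 2.05 for Dgke and 0.99 to 2.23 for Dgkq, beside 7.07 to 7.64 log2 RPKM for Dgkz. Of 21 genes of diacylglycerol effectors and the Ras to ERK cascade, 19 were tested, with 1 higher and 4 lower in ERY1-OVA cells, 2 and 6 in TER119-SIINFEKL cells, 2 and 5 in OVA cells and 1 and 2 in SIINFEKL cells (medians -0.05, -0.17, -0.19 and 0.04). Rasgrp2, an exchange factor for Rap1 of the RasGRP family, rose in ERY1-OVA (0.58 ± 0.14), OVA (0.68 ± 0.14) and SIINFEKL cells (0.72 ± 0.15). The phospholipase gene Plcg2 fell by 1.00 ± 0.17 in ERY1-OVA cells and fell by 1.19 ± 0.19 in SIINFEKL cells. Its group means were near the filter of 1 RPKM, at 0.24, 0.05 and 1.24 log2 RPKM in ERY1-OVA, SIINFEKL and Naive cells. The Ras exchange factor gene Sos1 fell by 1.05 ± 0.14 in TER119-SIINFEKL cells and fell by 0.84 ± 0.14 in OVA cells, and Hras rose in TER119-SIINFEKL cells (0.38 ± 0.12).

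Of 22 phosphatases, kinases and adaptors that restrain the receptor signal, all tested, 3 rose and 6 fell in ERY1-OVA cells, 5 and 8 in TER119-SIINFEKL cells, 1 and 7 in OVA cells and 4 and 4 in SIINFEKL cells (medians -0.07, -0.14, -0.12 and 0.03). The adaptor gene Lax1 rose in ERY1-OVA and TER119-SIINFEKL cells (0.63 ± 0.14 each), and the adaptor gene Dok2 rose in OVA cells (0.58 ± 0.14). Socs3, a feedback inhibitor of cytokine signals, fell by 1.91 ± 0.45 in ERY1-OVA cells, fell by 2.73 ± 0.45 in TER119-SIINFEKL cells and fell by 1.26 ± 0.45 in OVA cells. In SIINFEKL cells Rasa1 rose (1.02 ± 0.17, adjusted p = 0.0018), and Cish, which restrains phospholipase C gamma 1 in mouse CD8+ T cells, fell by 2.28 ± 0.39 (adjusted p = 0.0021). Cish levels were near or below the filter of 1 RPKM, with group means of -1.23 log2 RPKM in SIINFEKL and 1.05 in Naive cells.

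Of 20 genes of the TOB and BTG family and the CCR4-NOT deadenylase complex, 19 were tested. In ERY1-OVA cells 3 rose and 6 fell, in TER119-SIINFEKL cells 2 and 5, in OVA cells 2 and 6 and in SIINFEKL cells 1 and 1 (medians -0.11, -0.11, -0.10 and -0.03). Btg1, a relative of Tob1 that maintains T cell quiescence in mice, fell in all 4 groups. It fell by 1.02 ± 0.13 in ERY1-OVA cells (adjusted p = 4.4e-05), fell by 1.29 ± 0.13 in TER119-SIINFEKL cells (adjusted p = 4.8e-06), fell by 1.31 ± 0.13 in OVA cells (adjusted p = 3.8e-06) and fell by 0.48 ± 0.14 in SIINFEKL cells (adjusted p = 0.039). Rqcd1, a subunit of the complex, rose in ERY1-OVA (0.68 ± 0.12), TER119-SIINFEKL (0.76 ± 0.12) and OVA cells (0.88 ± 0.12). The deadenylase gene Cnot6l rose in SIINFEKL cells (0.46 ± 0.14, adjusted p = 0.045).

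Of 3 other NDRG genes, Ndrg2 and Ndrg3 were tested. Ndrg2 rose in ERY1-OVA (0.40 ± 0.13) and SIINFEKL cells (0.78 ± 0.15, adjusted p = 0.0042, limma). Of these groups, Ndrg1 fell in SIINFEKL cells only. Ndrg3 fell by 0.48 ± 0.16 in TER119-SIINFEKL cells and fell by 0.56 ± 0.16 in OVA cells. Of 20 genes known to respond to hypoxia, 17 were tested, with 2 higher and 3 lower in ERY1-OVA cells, 4 and 6 in TER119-SIINFEKL cells, 1 and 6 in OVA cells and 0 and 2 in SIINFEKL cells (medians -0.26, -0.29, -0.29 and -0.07). The glycolytic gene Ldha rose by 0.87 ± 0.12 in ERY1-OVA cells, 1.14 ± 0.12 in TER119-SIINFEKL cells and 1.31 ± 0.12 in OVA cells. The prolyl hydroxylase gene Egln3 fell by 1.55 ± 0.24 in ERY1-OVA cells, fell by 1.32 ± 0.24 in TER119-SIINFEKL cells and fell by 1.75 ± 0.27 in SIINFEKL cells, and the mitophagy gene Bnip3 fell by 0.75 ± 0.25 in OVA cells. Both genes were near the filter of 1 RPKM. Egln3 had group means of 0.02, 0.25 and -0.18 log2 RPKM in those groups and 1.57 in Naive cells. Bnip3 was at 0.82 in OVA and 1.57 in Naive cells. The shares called in these lists are to be read against the 39.9%, 47.6%, 47.6% and 15.9% of all genes called in the same comparisons.

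**Figure D5:**
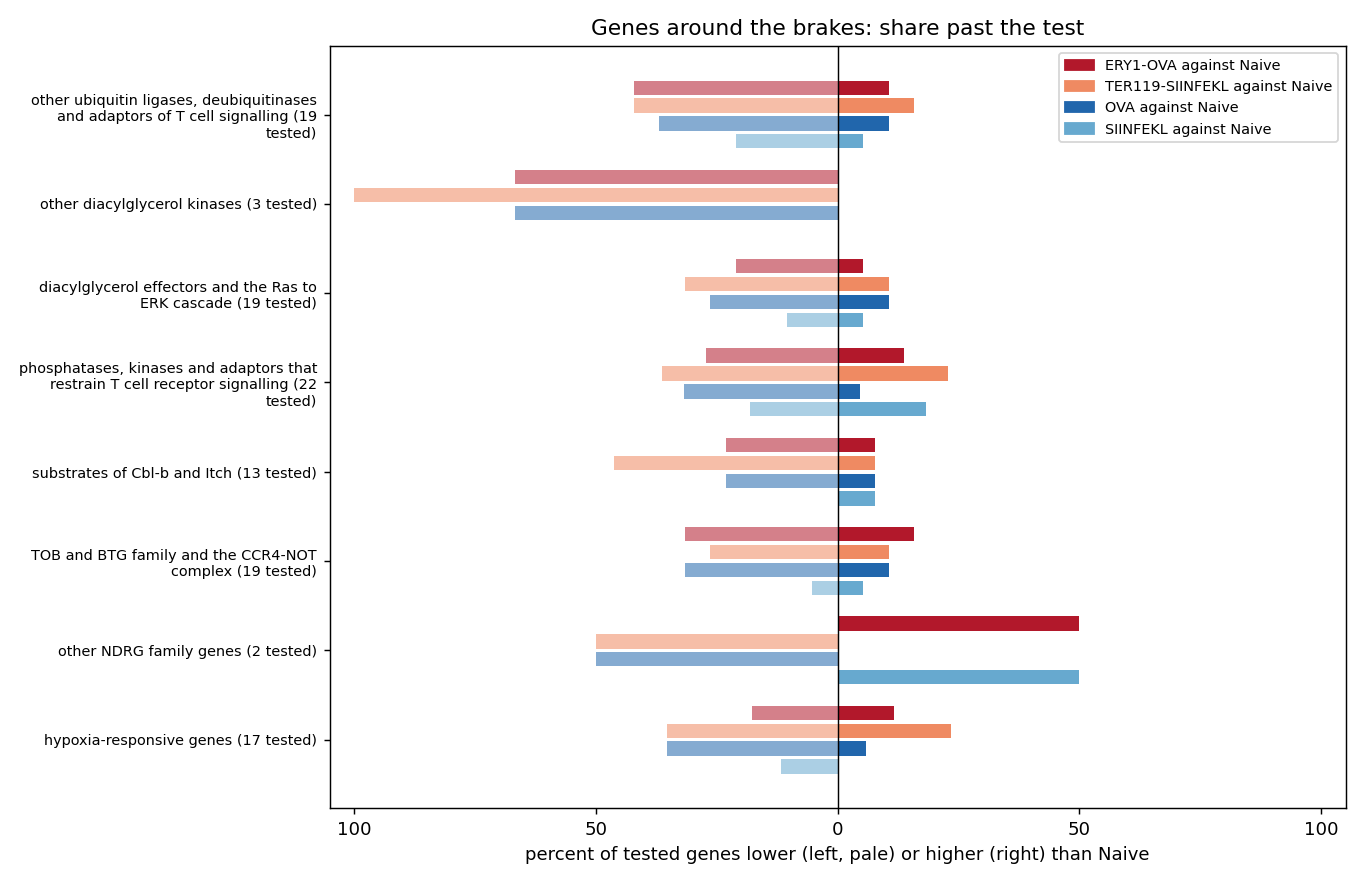
Percent of the tested genes of each list that were lower (left, pale bars) or higher (right, full bars) than Naive at an adjusted p under 0.05, for ERY1-OVA, TER119-SIINFEKL, OVA and SIINFEKL cells. Several lists are short: the other diacylglycerol kinases are 3 genes and the other NDRG genes are 2.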

How the data were processed

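Polyadenylated RNA of 14 libraries in 5 groups was sequenced with a stranded kit, per the labels' protocols. The authors deposited log2 RPKM values for 10106 genes. Of tools, the submitters' processing notes list edgeR, STAR 2.4.2 and bcl2fastq 2.17.1.14, and of builds mm10 and GRCm38, without roles. The annotation, read counter, strand setting, filter, prior count and normalization between libraries are not given in the sources used here. Base 2 was read from the values, since RPKM times transcript length in kilobases then summed to 1.23 to 1.43 times the scaling constant of the unit per library, and with base e to 16.2 to 27.2 times it.

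The test was planned on log2 RPKM, with 1 added to each RPKM only if the deposited values were linear. The deposited logarithms were used as they stood. The 313 genes whose mean fell below 1 RPKM were removed, leaving 9793. The model, fitted with limma 3.58.1 (R 4.3.3), held 5 group means and moderated variances along a trend with abundance (residual degrees of freedom 9, prior 4.6). For each of 11 comparisons, two-sided p-values were adjusted over all tested genes and called under 0.05. For 25 symbols in 2 rows, the first row was used in lists. No sample was dropped or imputed. The scripts were tested on simulated data.

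The 6 genes and all lists were chosen with earlier results of these data known. Named genes were the 6, for each of them the 4 most and 2 least alike over 14 libraries, and in each other list the called gene with the largest rise and the largest fall against Naive, with the other diacylglycerol kinases and Cd8a, Cd3e, Cd4, Mki67 and marker sums added. Positions and transcript lengths are from GENCODE M21. Promoters are from RefSeq and matched 4 of the 6 genes. For Cblb, Itch, Dgka, Dgkz and Ndrg1 the annotation holds a gene on the opposite strand within the gene body, none of them in the table, and whether reads were counted by strand is not known. Same-numbered libraries deviated together (r over 0.1) in all 3 pairs of TER119-SIINFEKL with Naive (r of 0.259 to 0.322) and with OVA (0.247 to 0.665). They did so in 2 of 2 pairs of SIINFEKL with OVA and with Naive, and in 2 of 3 of OVA with Naive. For ERY1-OVA it was 1 of 3 with TER119-SIINFEKL and with Naive, and 0 of 3 with OVA. SIINFEKL had 0 of 2 with ERY1-OVA and with TER119-SIINFEKL. Any pairing comes from the values and not from the labels. The block is given beside results of TER119-SIINFEKL against Naive or OVA where it changes a call. The 24 alternatives changed the scaling (quantile normalization, or median-of-ratios), the logarithm (1 added to each RPKM), the filter (none, or a mean of 3 RPKM), and the model (variances without a trend, only the groups compared, a replicate block). They also left out each of 14 libraries, left out OVA and TER119-SIINFEKL replicates 1 together, and applied a length and GC correction (9716 genes). Tables and figures used matplotlib 3.10.9, numpy 2.4.6, pandas 2.3.3 and Python 3.11.15.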

Additional observations from a re-analysis of the deposited data

Results flagged for a closer look

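The targeting effect on the protein and that on the peptide differed for 3 of the 6 genes, by limma's test of the difference itself, where 37.7% of all tested genes were called. The difference was 0.71 for Cblb (adjusted p = 0.025), 0.98 for Dgka (adjusted p = 0.00059) and -2.06 for Ndrg1 (adjusted p = 7.2e-05), in log2 units. For Ndrg1 and Dgka it came with SIINFEKL libraries that were the lowest and the highest of all 14. The carrier (ERY1 or TER119) and the antigen form changed together between these effects and cannot be told apart. No group held 4 or more libraries, so single libraries far from their group were not tested for.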

How the results depend on the processing

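Over the 24 alternatives, 12 of the 25 calls on single genes held throughout: Tob1 against Naive in ERY1-OVA, TER119-SIINFEKL and OVA cells, Ndrg1 in OVA and SIINFEKL cells against Naive and in every comparison of another antigen group with SIINFEKL, Dgka in TER119-SIINFEKL and in OVA against SIINFEKL, and the differences between targeting effects of Ndrg1 and Dgka. The Cblb and Dgkz calls depended on single libraries, as given beside them. The cause was not tested. With only 2 SIINFEKL libraries, leaving 1 out assumes that the other varies like the remaining groups. No gene that was called changed direction, and depth is unknown, so what it limits cannot be stated.

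Members called, with all genes called at the same setting, were 4 and 4750 in OVA against Naive after quantile normalization (2 and 4659 as reported). After the length and GC correction they were 5 and 5127 there, 5 and 5039 in TER119-SIINFEKL against Naive (3 and 4657), 1 and 237 in ERY1-OVA against OVA (0 and 104), 1 and 262 in TER119-SIINFEKL against OVA (0 and 148), and 5 and 4167 for the difference of targeting effects (3 and 3694). With only the groups compared they were 3 and 3022 in OVA against SIINFEKL (5 and 4135) and 1 and 805 in ERY1-OVA against SIINFEKL (2 and 1975). With a replicate block, 5 members and 3608 genes were called for the difference, where Dgkz was 0.56 and Tob1 0.91, the Cblb call in TER119-SIINFEKL against Naive was lost (adjusted p = 0.056), Itch in OVA against SIINFEKL was lost (-0.40, adjusted p = 0.065), and Tob1 there was called (-0.66, adjusted p = 0.039). Over all groups, 14 of 26 same-numbered pairs had correlations over 0.1 (between -0.443 and 0.665), against 15 of 52 pairs with different numbers (-0.543 to 0.573). Whether the numbers pair the libraries cannot be told from these values, and the labels do not say. With a block for the number no other call of TER119-SIINFEKL against Naive or OVA changed.

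Leaving out 1 library, members called ran from 1 to 3 in ERY1-OVA, 1 to 4 in TER119-SIINFEKL, 2 to 3 in OVA and 1 to 4 in SIINFEKL against Naive, 2 to 3 in TER119-SIINFEKL against SIINFEKL, 3 to 6 in OVA against SIINFEKL, 1 to 2 in ERY1-OVA against SIINFEKL and 2 to 5 for the difference. Genes called ran from 363 to 2438 in SIINFEKL against Naive, 0 to 360 in ERY1-OVA against OVA, 0 to 163 in ERY1-OVA against TER119-SIINFEKL, 45 to 280 in TER119-SIINFEKL against OVA and 1299 to 2218 in ERY1-OVA against SIINFEKL.

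All genes called against Naive with 1 library left out ran from 3013 to 4159 in ERY1-OVA and 3905 to 4873 in TER119-SIINFEKL cells. In OVA cells they ran from 3775 to 4922. Without OVA replicate 1, 3 members and 3522 genes were called in OVA against SIINFEKL (5 and 4135 as reported). Without OVA replicate 2, 5 members and 3508 genes were called for the difference (3 and 3694). All genes called in ERY1-OVA against OVA were 104 as reported, 66 after quantile normalization and 69 with the block. They were 13 without both OVA and TER119-SIINFEKL replicates 1 and 237 after the length and GC correction. In ERY1-OVA against TER119-SIINFEKL they were 55, 29 without the trend, 32 with the block and 114 after the correction, and in TER119-SIINFEKL against OVA 148, 20 without those libraries and 262 after the correction. With only the groups compared they were 605 in SIINFEKL against Naive (1559), 2131 in TER119-SIINFEKL against SIINFEKL (3664) and 805 in ERY1-OVA against SIINFEKL (1975).

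The share of higher genes among those called moved by over 10 points with the length and GC correction in ERY1-OVA (40.7%, 52.4% as reported) and OVA against Naive (40.6%, 51.3%), in TER119-SIINFEKL (43.9%, 54.5%), OVA (42.0%, 52.9%) and ERY1-OVA against SIINFEKL (46.4%, 65.9%), and in ERY1-OVA against OVA (50.6%, 38.5%) and TER119-SIINFEKL against OVA (71.0%, 60.1%). Quantile normalization moved it in ERY1-OVA against OVA (60.6%) and ERY1-OVA against SIINFEKL (51.2%).

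Directions that turned were all of values not called. After quantile normalization these were Dgka in ERY1-OVA (-0.11) and Cblb (-0.03) and Dgkz (-0.15) in OVA against Naive. Without OVA and TER119-SIINFEKL replicates 1 they were Tob1 in ERY1-OVA against OVA (-0.03) and Cblb (-0.09) and Dgkz (-0.07) in ERY1-OVA against TER119-SIINFEKL. After the length and GC correction they were Dgka in ERY1-OVA (-0.03) and Itch in SIINFEKL against Naive (-0.01), and Dgkz in TER119-SIINFEKL (0.01) and ERY1-OVA against SIINFEKL (0.02). Leaving out 1 library, Cblb ran from -0.09 to 0.23, Dgkz from -0.07 to 0.14 and Itch from -0.15 to 0.06 in ERY1-OVA against TER119-SIINFEKL, Tob1 from -0.14 to 0.38 in ERY1-OVA against OVA and from -0.28 to 0.01 in TER119-SIINFEKL against OVA, and against Naive Dgka from -0.04 to 0.14 in ERY1-OVA, Cblb from -0.01 to 0.12 in OVA and Itch from -0.06 to 0.19 in SIINFEKL cells.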
